A study of Rattus norvegicus with 12 samples.

Results

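The 76 genes described here are the most abundant transcripts of the rat retina in this series. They were chosen by their level alone. A gene was taken when its mean over all 12 libraries was at least 1000 TPM (the length-normalised unit of the table, a read count divided by gene length and scaled to the same total in each library), and 10 identifiers were left out beforehand. Of the 32883 rows in the deposited table, 22310 were above 0 somewhere and 82 had a mean of at least 1000 TPM. The left-out identifiers included 6 of these 82, which gave 76. The 3 genes just inside the limit had means of 1031, 1022 and 1004 TPM, and the 3 just outside it had means of 997, 984 and 982 TPM.

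The study compared the retinas of Sprague Dawley rats, wild type in genotype and 18 days old (P18), in 4 groups of 3 libraries. Oxygen-induced retinopathy (OIR) was set against sham controls, and within each condition a mimic of the microRNA miR-143 was set against a scrambled RNA. A mimic is a synthetic RNA that acts in place of the mature microRNA. The groups were sham with scrambled RNA, sham with the mimic, OIR with scrambled RNA and OIR with the mimic. No group went without a transfected RNA, and the effect of the procedure itself cannot be read from these libraries. The labels do not state how the mimic was delivered, which strand or sequence it had, the oxygen schedule, or whether each library came from a separate animal. P-values therefore measure the spread between these libraries, which may be technical in part.

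In the OIR model, young rodents are exposed to oxygen levels that first halt the growth of retinal vessels and later provoke disordered new vessels, while the neural retina is also affected. A retina holds photoreceptors in large excess over other neurons, with glia, vessels and a few immune cells, and its transcript pool is dominated by a small set of genes. Such a pool in photoreceptor-rich tissue is known for phototransduction, mitochondrial, ribosomal and glycolytic transcripts. MicroRNAs such as miR-143 lower the stability or translation of transcripts that carry matching sites. Measurements on whole retina do not separate fewer cells of a type from less RNA per cell, and these cannot be told apart in any result below.

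The files give Ensembl identifiers without gene names, and 0 of the 76 could be paired with a symbol through the annotation table used here. The genes are therefore called by their rank in mean TPM, from rank 1 to rank 76, and 4 identifiers are given. Rank 5 is ENSRNOG00000017589, rank 56 is ENSRNOG00000015402, rank 55 is ENSRNOG00000061215 and rank 49 is ENSRNOG00000034254. Lists of photoreceptor, mitochondrial, ribosomal, glial, lens and blood genes could not be applied, so the tissue label was not checked against markers. What each gene does, and whether it holds miR-143 sites, is not analysed here.

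Levels within the 76 genes were steeply graded. The highest 4 had means over 10000 TPM, a further 15 lay between 2000 and 10000 TPM, and 57 lay under 2000 TPM, with a median of 1464 TPM. The first 5 ranks together made up 40.7% of the summed mean TPM of the set. In single libraries, between 63 and 74 of the genes were over 1000 TPM, and 52 were over it in every library. Had the mean over the 6 sham libraries been used, 78 genes would have been taken, 72 of them shared with the present set. Recovered gene lengths had a median of 1399 bases, with a range of 144 to 4273 bases, against a median of 2143 bases for the 15916 genes tested. Genes under 1000 bases made up 26.3% of the set and 19.2% of all tested genes. The libraries held 10537567 to 13174967 reads on genes, and a gene of the set had 636 to 434448 reads in a library, so that counting error was at most 3.97% of a value.

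Rank 1 was the most abundant gene in all 12 libraries and rank 2 the next in all 12. Rank 1 stood at 42249, 41634 and 44832 TPM in sham with scrambled RNA and at 41681, 42493 and 45460 TPM in sham with the mimic. In OIR, rank 1 stood at 33920, 34189 and 23696 TPM with scrambled RNA and at 29830, 37956 and 33260 TPM with the mimic. All 6 OIR libraries lay below all 6 sham libraries. Rank 2, a transcript with a recovered length of only 264 bases, ranged from 19420 to 21928 TPM in sham and from 13207 to 21878 TPM in OIR, and the ranges overlapped.

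Rank 5 was the most variable of the leading genes. It held the third place among all rows in each sham library and fell to places between 5 and 9 in the OIR libraries. Its values were 13404, 12723 and 14537 TPM in sham with scrambled RNA, and 12299, 13048 and 13725 TPM in sham with the mimic. In OIR they were 6664, 6416 and 3493 TPM with scrambled RNA and 5136, 7416 and 6443 TPM with the mimic. The lowest sham value was well above the highest OIR value. Ranks 3 and 4 took places 3 to 5 in every library, and their sham and OIR ranges overlapped. Rank 3 ranged from 9995 to 10821 TPM in sham and from 8501 to 13836 TPM in OIR, and rank 4 from 9503 to 11338 TPM in sham and from 7977 to 12416 TPM in OIR.

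**Figure D1:**
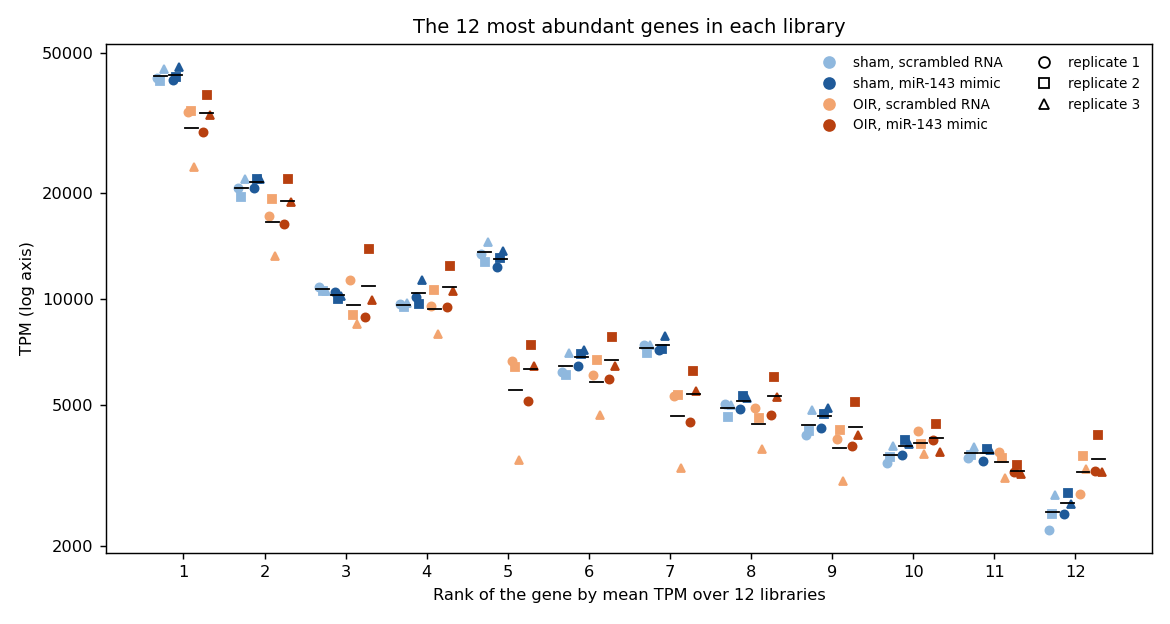
TPM on a log axis against rank of mean TPM for the 12 most abundant genes; each point is a library, coloured by group and shaped by replicate, and each line is a group mean of 3. Ranks 1, 5 and 7 have all OIR points below all sham points, and the OIR points of ranks 2, 3 and 4 spread more widely than the sham points.

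Ranks 6 to 12 had sham means between 7347 TPM (rank 7) and 2559 TPM (rank 12). Rank 7 stood at 7411, 7022 and 7401 TPM in sham with scrambled RNA, 7190, 7213 and 7845 TPM in sham with the mimic, 5315, 5333 and 3314 TPM in OIR with scrambled RNA and 4469, 6237 and 5474 TPM in OIR with the mimic, without overlap. Rank 12 moved the other way, from 2218 to 2814 TPM in sham to 2808 to 4115 TPM in OIR, and its highest sham value passed its lowest OIR value by a few TPM. The other ranks in this stretch had overlapping ranges. Rank 6 lay at 6107 to 7177 TPM in sham and 4679 to 7800 TPM in OIR, and rank 8 at 4637 to 5306 TPM in sham and 3756 to 6001 TPM in OIR. Rank 9 lay at 4113 to 4915 TPM in sham and 3040 to 5095 TPM in OIR. These 3 genes had their lowest value in OIR with scrambled RNA replicate 3 and their highest in OIR with the mimic replicate 2. Rank 10 lay at 3434 to 3980 TPM in sham and 3628 to 4434 TPM in OIR, and rank 11 at 3466 to 3796 TPM in sham and 3117 to 3685 TPM in OIR.

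The 76 genes held a smaller share of the TPM total in OIR than in sham, and the gap lay in the first 5 ranks. Their share was 22.5% ± 0.743 (SD, n = 6) in sham and 20.3% ± 1.76 (SD, n = 6) in OIR. Ranks 1 to 5 held 9.79% ± 0.350 of all TPM in sham and 7.62% ± 1.22 in OIR, with ranges of 9.38% to 10.3% and 5.69% to 9.35% that did not overlap. Among these 5, ranks 3 and 4 had similar means in sham and OIR. The other 71 genes held 12.7% ± 0.431 in sham and 12.7% ± 0.629 in OIR. The OIR figure includes rank 36. Without that gene, the share of the whole set in OIR with scrambled RNA replicate 3 was 17.0% in place of 17.9%. These sums include the genes by which the set was chosen and carry no test. Because TPM is a share, a fall in the leading genes raises the values of all others by a small factor.

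**Figure D2:**
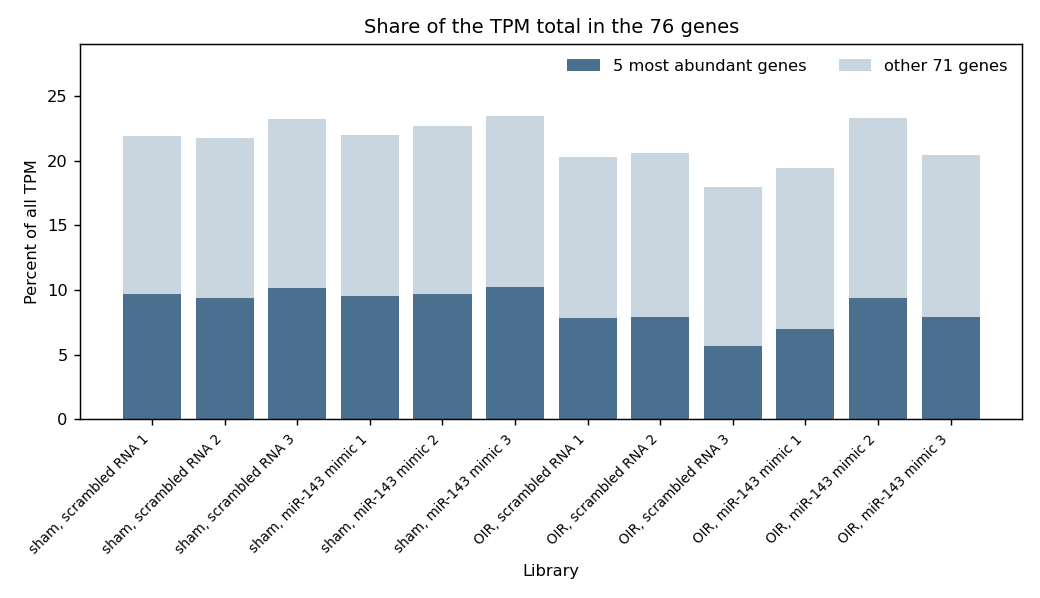
Percent of the TPM total of each library held by the 76 genes, stacked as the 5 most abundant genes and the other 71; bars start at 0 and each bar is a library. The lower segment is between 9.38% and 10.3% in the sham libraries and between 5.69% and 9.35% in the OIR libraries, while the upper segment changes little.

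By library, the set held 21.9%, 21.7% and 23.2% of TPM in sham with scrambled RNA and 22.0%, 22.7% and 23.4% in sham with the mimic. In OIR it held 20.3%, 20.6% and 17.9% with scrambled RNA and 19.5%, 23.3% and 20.4% with the mimic. OIR with scrambled RNA replicate 3 was the lowest of all 12, and OIR with the mimic replicate 2 lay within the sham range. Both libraries stand apart in single genes too. OIR with scrambled RNA replicate 3 had the lowest of the 12 values in 30 of the 76 genes (39.5%, against 6.92% of all tested genes). OIR with the mimic replicate 2 had the highest value in 32 of them (42.1%, against 7.02% of all tested genes). Over all tested genes, both libraries stood more often at the other end. OIR with the mimic replicate 2 had the lowest value in 25.5% of them, and OIR with scrambled RNA replicate 3 the highest in 18.3%. Each was the largest such share of any library. Sham with scrambled RNA replicate 1 had the lowest value in 18 genes (23.7%, against 12.2%).

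Directly compared, OIR with the mimic replicate 2 exceeded OIR with scrambled RNA replicate 3 by more than 1.5-fold in 17 of the 76 genes, or 22.4%, against 3.61% of all tested genes. The ratio was 2.21 for rank 75, 2.12 for rank 5, 1.96 for rank 24, 1.88 for rank 7 and 1.84 for rank 56. Its median was 1.18 over the set and 0.873 over all tested genes. The 2 libraries were picked because they stood apart in these same genes, so an excess over all tested genes follows in part from that choice. They belong to different groups and each is a single library, so no test was made. What sets them apart was not tested.

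Oxygen-induced retinopathy against sham was first tested with both transfections averaged. The test was limma's moderated test on log2(TPM + 1), fitted on all 15916 genes with Benjamini-Hochberg adjustment and a threshold of 0.05, and all 76 genes passed its filter on low values. The mean over 12 libraries that chose the genes does not use this contrast, but a gene near the limit can enter the set through a single condition. Of the 76 genes, 30 passed the threshold (39.5%), against 30.2% of all tested genes. Higher in OIR were 13 of the 76, against 17.5% of all tested genes, and lower were 17, against 12.8%. Of these, 3 higher genes had a sham mean under 1000 TPM and 5 lower genes an OIR mean under it. Among the 66 genes with both means at 1000 TPM or more, 10 were called higher and 12 lower, beside the same 17.5% and 12.8% of all tested genes. The 39.5% includes the genes that are in the set through their level in sham or in OIR, so it is not read as an excess. Read by level, the called share was 25.1% of tested genes under 10 TPM, 31.7% from 10 to 100 TPM, 38.5% from 100 to 1000 TPM and 42.7% of the 82 genes of 1000 TPM or more. The share in the set is thus close to that of the next level class. The median standard error was 0.07 for the 76 genes and 0.10 for all tested genes on the log2 scale, so smaller changes could be called in the set. By level, it was 0.057 from 100 to 1000 TPM and 0.067 for the 82 genes of 1000 TPM or more. It was thus no smaller than in the next level class.

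The set as a whole leaned in neither direction, with a median log2 fold change of 0.01, against 0.04 over all tested genes. Without regard to sign, the median size was 0.15 for the 76 genes and 0.17 over all tested genes, and 0.13 for genes from 100 to 1000 TPM. In 18 genes the 6 OIR and the 6 sham libraries did not overlap at all, which is 23.7% against 17.7% of all tested genes. Of these, 11 were lower and 7 higher in OIR, and each of the 18 had also passed the threshold. Ranks 55, 56, 62, 63 and 73 are among the 18 and had a mean under 1000 TPM in sham or in OIR. They are in the set through the condition where they are high, which favours a gap. The 23.7% is therefore not read as an excess.

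**Figure D3:**
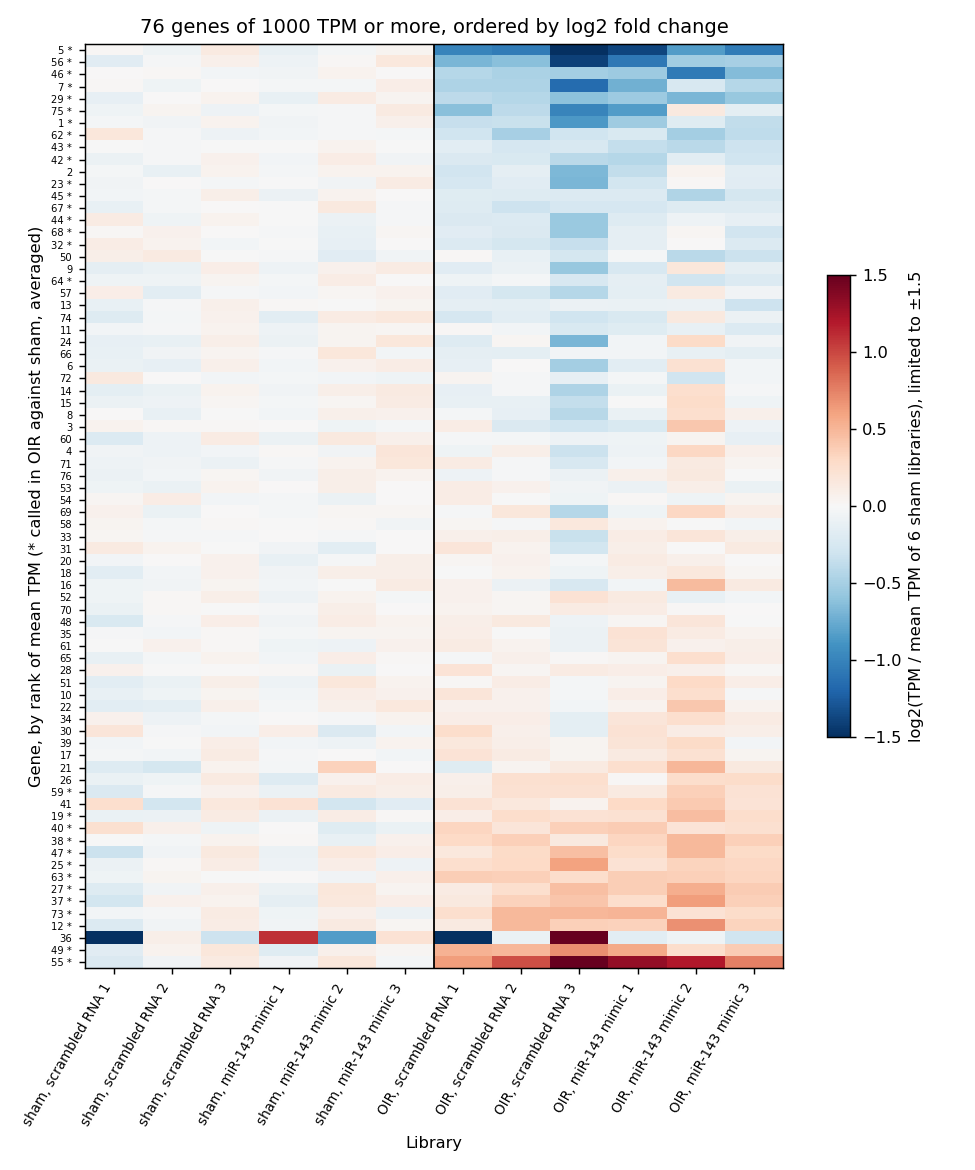
Log2 ratio of each TPM value to the gene's mean over 6 sham libraries, for the 76 genes (rows, by rank, ordered by log2 fold change) in the 12 libraries (columns); the scale is limited to ±1.5 and an asterisk marks the 30 genes past the threshold with both transfections averaged. The OIR columns are blue at the top and red at the bottom, and the column of OIR with scrambled RNA replicate 3 is the bluest in many rows.

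The 17 genes that fell were ranks 1, 5, 7, 23, 29, 32, 42, 43, 44, 45, 46, 56, 62, 64, 67, 68 and 75. Their summed mean TPM was 84393 in sham and 59491 in OIR, and the size of their log2 change was at least 0.16, with a median of −0.29. Ranks 1 and 5 made up most of that sum. Rank 1 fell from 43058 ± 1662 TPM (SD, n = 6) in sham to 32142 ± 4880 TPM in OIR. Its log2 fold change was −0.44 (SE 0.10, limma adjusted p = 0.00505). Rank 5 fell from 13289 ± 790 TPM to 5928 ± 1401 TPM, a decrease of the mean by 55.4%. Its log2 fold change was −1.20 (SE 0.15, limma adjusted p = 0.000216), the largest fall among the 76 genes.

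Rank 56 showed the fall next in size. It stood at 1286, 1422 and 1526 TPM in sham with scrambled RNA, 1366, 1457 and 1612 TPM in sham with the mimic, 898, 936 and 548 TPM in OIR with scrambled RNA and 685, 1008 and 1026 TPM in OIR with the mimic. The groups did not overlap, and the log2 fold change was −0.80 (SE 0.14, limma adjusted p = 0.00177). Like rank 5, it was lowest in OIR with scrambled RNA replicate 3.

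Rank 46 followed another order of libraries. It lay at 1574 to 1695 TPM in all 6 sham libraries, at 1213, 1168 and 1142 TPM in OIR with scrambled RNA and at 1112, 778 and 1033 TPM in OIR with the mimic. Its lowest value was in OIR with the mimic replicate 2, the library with the highest value of 32 genes of the set. The log2 fold change was −0.61 (limma adjusted p = 0.000169). Rank 29 also had its lowest value there. It stood at 1853, 2032 and 2091 TPM in sham with scrambled RNA, 1864, 2188 and 2071 TPM in sham with the mimic, 1542, 1495 and 1316 TPM in OIR with scrambled RNA and 1386, 1254 and 1364 TPM in OIR with the mimic. Its log2 fold change was −0.53 (limma adjusted p = 9.62e-05), the smallest adjusted p in the set.

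Rank 43 was even in sham, at 1489 to 1560 TPM, and lay at 1140 to 1352 TPM in OIR, with a log2 fold change of −0.29 (limma adjusted p = 0.000216). Rank 42 fell by 17.9% of its sham mean, from 1434 to 1642 TPM in sham to 1126 to 1366 TPM in OIR. Rank 62 lay at 1185 to 1405 TPM in sham and 882 to 1067 TPM in OIR, with a log2 fold change of −0.37 (limma adjusted p = 0.00111). None of these 3 genes overlapped between conditions. Rank 7, given above, had a log2 fold change of −0.58 (limma adjusted p = 0.00371).

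Rank 75 is the least secure of the genes that fell. It stood at 1112 to 1288 TPM in sham and at 756, 888 and 587 TPM in OIR with scrambled RNA, but at 657, 1295 and 1060 TPM in OIR with the mimic. Its highest value of all was thus an OIR value, in the mimic library replicate 2. The log2 fold change was −0.47 (limma adjusted p = 0.0336), and 11 of 24 alternative settings ended the call, where the adjusted p reached 0.0800. Leaving out OIR with scrambled RNA replicate 3 gave a log2 fold change of −0.39 (limma adjusted p = 0.0782).

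The 13 genes that rose were ranks 12, 19, 25, 27, 37, 38, 40, 47, 49, 55, 59, 63 and 73. Ranks 55, 63 and 73 had sham means under 1000 TPM and are in the set through their OIR level. Of the genes that fell, ranks 56, 62, 67, 68 and 75 had OIR means under 1000 TPM and are in the set through their sham level. Of the 66 genes with both means at 1000 TPM or more, 10 rose and 12 fell, where 17.5% of all tested genes rose and 12.8% fell. The 13 genes that rose had a summed mean TPM of 17335 in sham and 22651 in OIR. Their log2 changes were at least 0.21 with a median of 0.34. None of them was among the first 11 ranks. Their recovered lengths had a median of 1093 bases, from 411 to 3009 bases, and those of the genes that fell a median of 1511 bases, from 644 to 4103 bases.

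Rank 55 rose most. It stood at 626, 701 and 796 TPM in sham with scrambled RNA, 698, 816 and 713 TPM in sham with the mimic, 1116, 1417 and 2302 TPM in OIR with scrambled RNA and 1814, 1669 and 1228 TPM in OIR with the mimic. Its mean was 725 ± 70.0 TPM (SD, n = 6) in sham and 1591 ± 435 TPM in OIR, with a log2 fold change of 1.10 (SE 0.16, limma adjusted p = 0.000625). The conditions did not overlap, and the gene reached 1000 TPM in no sham library.

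Rank 49 rose from 920, 1072 and 1163 TPM in sham with scrambled RNA and 913, 1094 and 1059 TPM in sham with the mimic. In OIR it stood at 1486, 1462 and 1685 TPM with scrambled RNA and at 1534, 1244 and 1347 TPM with the mimic, above every sham value. The log2 fold change was 0.49 (SE 0.08, limma adjusted p = 0.000704). Both rank 55 and rank 49 were highest in OIR with scrambled RNA replicate 3, the library in which ranks 5 and 56 were lowest.

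Rank 63 had the tightest groups of the genes that rose. It stood at 934, 1010 and 972 TPM in sham with scrambled RNA, 980, 940 and 1032 TPM in sham with the mimic, 1261, 1254 and 1170 TPM in OIR with scrambled RNA and 1262, 1256 and 1222 TPM in OIR with the mimic. Its log2 fold change of 0.34 (SE 0.04, limma adjusted p = 0.000155) had 1 of the smaller standard errors in the set, and its sham mean of 978 TPM lay below the limit of the set. Rank 73 lay at 854 to 984 TPM in sham, also below the limit, and 1051 to 1286 TPM in OIR, and rank 38 at 1221 to 1376 TPM in sham and 1462 to 1841 TPM in OIR. Rank 25 lay at 1481 to 1701 TPM in sham and 1835 to 2399 TPM in OIR. In these genes too the conditions did not overlap, with log2 fold changes of 0.37, 0.33 and 0.34 in that order.

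Rank 47 was separated by a few TPM only, at 962 to 1332 TPM in sham and 1338 to 1682 TPM in OIR. Its log2 fold change was 0.33 (limma adjusted p = 0.0114), and 1 of 24 alternative settings, median-ratio scaling, ended the call with an adjusted p of 0.0527. Ranks 27 and 37 overlapped between conditions. Rank 27 lay at 1327 to 1709 TPM in sham and 1647 to 2209 TPM in OIR, and rank 37 at 1105 to 1482 TPM in sham and 1469 to 2051 TPM in OIR. Both had a log2 fold change of 0.36. Rank 12 had one of 0.39 (limma adjusted p = 0.00481).

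**Figure D4:**
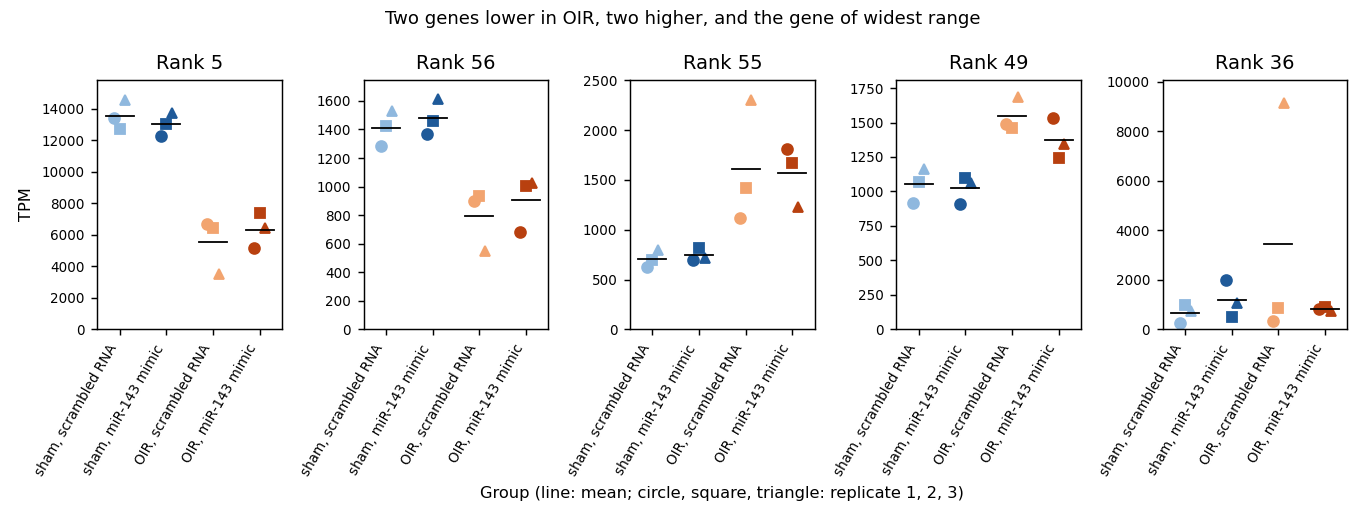
TPM by group for ranks 5 and 56 (lower in OIR), ranks 55 and 49 (higher in OIR) and rank 36 (the widest range); each axis starts at 0, points are libraries with 1 shape per replicate number, and lines are means of 3. For ranks 5, 56, 55 and 49 all OIR points lie on one side of all sham points, and for rank 36 a single OIR library stands at 9161 TPM.

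Among the 46 genes that did not pass, log2 fold changes ran from −0.26 to 0.47. For 45 of them the 95% interval lay within a 1.5-fold change in either direction, so a larger change of these genes would lie outside their intervals. Rank 2 was at the lower end with a log2 fold change of −0.26 (limma adjusted p = 0.0595). The exception was rank 36. It stood at 244, 990 and 751 TPM in sham with scrambled RNA, 1988, 520 and 1085 TPM in sham with the mimic, 323, 865 and 9161 TPM in OIR with scrambled RNA and 830, 890 and 758 TPM in OIR with the mimic. Its highest value was 37.5 times its lowest, while the next widest gene, rank 5, spanned 4.16-fold. Without OIR with scrambled RNA replicate 3 its mean was 840 TPM, below the limit of the set. Its log2 fold change of 0.47 had a standard error of 0.79 (limma adjusted p = 0.699).

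The spread between libraries of a group was larger in OIR. The median within-group SD of log2(TPM + 1) over the 76 genes was 0.08 in sham and 0.13 in OIR, against 0.14 and 0.17 over all tested genes. It was larger in OIR for 55 of the 76 genes, or 72.4%, against 59.0% of all tested genes. Leaving out each OIR library in turn gave between 49 and 58 genes. The lowest counts were 49 without OIR with scrambled RNA replicate 3 and 50 without OIR with the mimic replicate 2. The share of all tested genes was not computed for these runs, so an excess in them cannot be read.

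The OIR comparison was then made within each transfection. These 2 comparisons contrast different libraries, but both take their standard errors from the spread of all 12, so they are not independent tests. In addition, 1 sham library of each carries the same column number, and whether these came from 1 animal is not stated. With scrambled RNA, 16 of the 76 genes passed (21.1%), against 10.7% of all tested genes and 14.5% of those from 100 to 1000 TPM. Of the 16, 6 were higher, against 6.79% of all tested genes, and 10 were lower, against 3.91%. When the values were rescaled to the TPM total without the 76 genes and the 10 left-out identifiers, the same number passed. The split was then 4 higher and 12 lower. Leaving out single libraries moved the count to between 6 and 21, with 6 genes without sham with scrambled RNA replicate 1, 7 without replicate 2, 10 without OIR with scrambled RNA replicate 2 and 9 without replicate 3. It was 4 without both sham libraries that share a column number, sham with scrambled RNA replicate 1 and sham with the mimic replicate 1.

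With the mimic, 20 of the 76 genes passed (26.3%), against 19.5% of all tested genes and 26.4% of those from 100 to 1000 TPM. The share in the set was thus that of the next level class. The 20 genes were 10 higher, against 9.76% of all tested genes, and 10 lower, against 9.77%. Ranks 55, 56, 62, 63 and 73, in the set through their level in OIR or in sham, are in this count and in that for scrambled RNA. The count was 12 without sham with the mimic replicate 1, 12 without replicate 2 and 11 without replicate 3, and 13 without both sham libraries that share a column number. The median log2 fold change of the 76 genes was −0.02 for scrambled RNA, against 0.05 over all tested genes, and 0.03 for the mimic, against 0.04.

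Both comparisons called 12 genes (15.8%), 6 lower in both and 6 higher in both, against 8.69% of all tested genes. The lower genes were ranks 5, 29, 43, 46, 56 and 62, and the higher genes ranks 25, 38, 49, 55, 63 and 73. Of these, ranks 56 and 62 had an OIR mean under 1000 TPM, and ranks 55, 63 and 73 a sham mean under it. The 15.8% includes these genes, so it is not read as an excess. Rank 5 had log2 fold changes of −1.35 with scrambled RNA (limma adjusted p = 0.00393) and −1.06 with the mimic (limma adjusted p = 0.00601). Rank 55 had 1.13 with scrambled RNA (limma adjusted p = 0.0123) and 1.06 with the mimic (limma adjusted p = 0.00875). The sign was the same in both for 61 of the 76 genes (80.3%), against 78.5% of all tested genes. With scrambled RNA alone, ranks 1, 7, 32 and 44 passed (5.26%, against 2.02% of all tested genes). With the mimic alone, ranks 12, 19, 27, 40, 42, 45, 64 and 67 passed (8 of 76, against 10.8% of all tested genes). A further 52 passed in neither, and 6 of these passed with both transfections averaged.

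Passing in 1 comparison only does not show that the effects differ. For rank 1 the log2 fold change was −0.51 with scrambled RNA (limma adjusted p = 0.0352) and −0.37 with the mimic (limma adjusted p = 0.0811), and 11 of 25 alternatives ended the first call. Rank 7 had −0.68 with scrambled RNA (limma adjusted p = 0.0262) and −0.47 with the mimic (limma adjusted p = 0.0718), and 6 of 25 alternatives ended the first call. The test of the difference, the interaction of OIR and mimic, called 0 of the 76 genes and 0% of all tested genes.

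**Figure D5:**
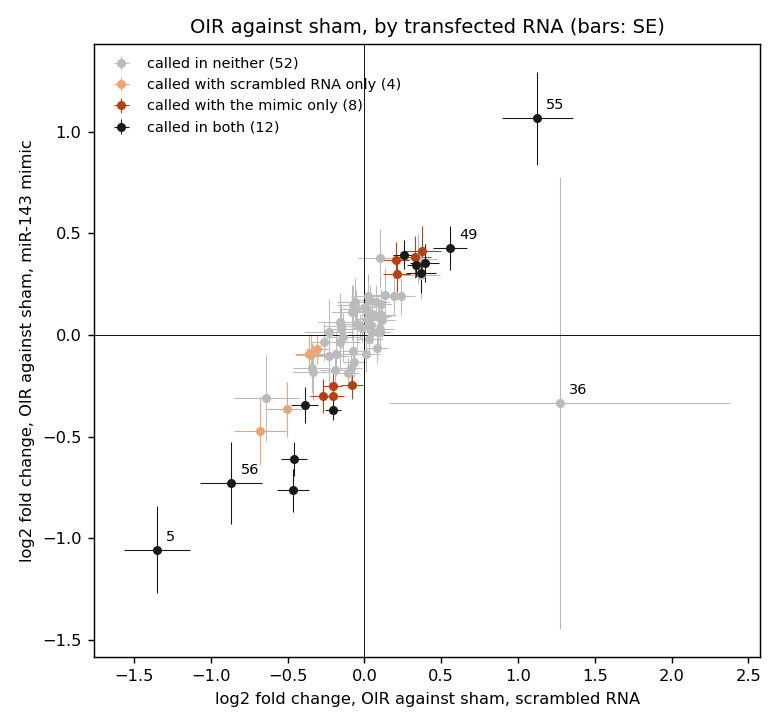
Log2 fold change of OIR against sham with the mimic (vertical) against that with scrambled RNA (horizontal) for the 76 genes; bars are standard errors and colours give the comparison in which a gene passed the threshold. Ranks 5 and 56 lie at the lower left, ranks 55 and 49 at the upper right, and rank 36 has the widest bars.

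The mimic itself was compared with scrambled RNA in OIR and in sham, which asks whether miR-143 changes these transcripts. In OIR, limma called 0 of the 76 genes and 0% of all tested genes, with 10 of the 76 (13.2%) and 9.37% of all tested genes at an unadjusted p under 0.05. The count of 10 became 0 without OIR with the mimic replicate 2, 17 without OIR with scrambled RNA replicate 2 and 6 without sham with scrambled RNA replicate 2. It became 2 when the spread came from the OIR libraries only. In sham, limma called 0 of the 76 genes and 0% of all tested genes, with 0 of the 76 and 2.09% of all tested genes at an unadjusted p under 0.05. With array weights, 11 of the 76 were under it in sham. The interaction had 2 (2.63%) at an unadjusted p under 0.05, against 3.70% of all tested genes. Voom on recovered reads called 0 of the 76 in each of these 3 comparisons. The smallest adjusted p among the 76 genes was 0.462 in OIR, and 1.00 in sham and for the interaction.

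The intervals bound what could have been missed only as far as the spread shared by all 12 libraries holds for each gene. Within-group SD was larger in OIR than in sham for most of the 76 genes, so the OIR intervals may be too narrow. In sham, 75 of the 76 genes had a 95% interval of the mimic's effect within a 1.5-fold change in either direction. In OIR this held for 69 genes, all but ranks 5, 7, 21, 24, 36, 56 and 75, and for the interaction for 64. The exception in sham was rank 36, whose values with scrambled RNA and with the mimic are given above. The median log2 fold change for the mimic was 0.09 in OIR, against −0.05 over all tested genes, and 0.03 in sham, against −0.03. OIR with scrambled RNA replicate 3 and OIR with the mimic replicate 2, the libraries that stand apart at these levels, lie on opposite sides of the OIR comparison, and their part in its median was not tested.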

How the data were processed

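The authors deposited 1 table of TPM values for 32883 Ensembl identifiers in 12 columns, scaled to 1 total per library, and 0 columns were left unassigned. FastQC, TopHat, Cufflinks, Cuffdiff and the build rn6 are named in the submitters' processing notes without roles or versions. The sources used here do not name the counting tool or the annotation release. Per the labels' protocols, retinal RNA was sequenced single-end, and the text speaks of miRNA libraries, while the table lists genes.

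Groups come from the sample titles, since disease and transfection tags are absent from 2 records (OIR with scrambled RNA replicate 3 and OIR with the mimic replicate 1). The column names carry one letter in all mimic columns and another in all scrambled columns, and separate runs of numbers in sham and OIR. Whatever these mark cannot be told apart from the conditions.

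The 76 genes, the named genes and the gene lists were chosen with earlier results of these data known. Named are the 12 highest genes and up to 10 genes in each direction past the threshold in OIR against sham with both transfections averaged, by size of log2 fold change. Only 4 identifiers are printed. Genes named outside this rule, such as ranks 24 and 36, were named after their values were seen.

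Genes of at least 1 TPM in at least 3 libraries (15916) were fitted as log2(TPM + 1) with limma 3.58.1 in R 4.3.3. The fit had 1 mean per group and 1 spread shared by all 12 libraries (8 residual degrees of freedom), moderated by eBayes with its trend and robust settings. Benjamini-Hochberg adjustment ran over all tested genes within a comparison, with a threshold of 0.05. The script was tested on simulated data. A pseudocount of 1 is negligible at these levels.

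Each deposited TPM is a whole number of reads times what 1 read is worth, which gave reads and lengths for 22310 of 22310 rows above 0 (tolerance 0.02 for a whole read). They served for depth and for voom, an alternative chosen after seeing the data, as was leaving out both libraries with a shared column number. Reads and length could both be a multiple of those recovered. Counting error covers sampling of reads only. Over 12 pairs of libraries within groups, chi-square per degree of freedom was 4.67 to 22.6, so no pair was a duplicate. Planned gene lists could not be used without gene names.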

Additional observations from a re-analysis of the deposited data

Results flagged for a closer look

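For the 28 named genes, the 6 libraries of each condition were examined for 1 library far from the rest, which gave 56 sets of values. A set was listed when the gap between the extreme library and its neighbour, divided by the range, passed Dixon's 95% limit for 6 values. Chance lists about 1 in 20 sets, and 4 of the 56 were listed. Rank 4 stood at 11338 TPM in sham with the mimic replicate 3, and the next sham library at 10118 TPM. Rank 25 stood at 2399 TPM in OIR with scrambled RNA replicate 3, and the next OIR library at 1987 TPM. Rank 43 stood at 1560 TPM in sham with the mimic replicate 2, with the next sham library at 1506 TPM. Rank 62 stood at 1405 TPM in sham with scrambled RNA replicate 1, with the next sham library at 1241 TPM. The listed library was the highest of its condition in all 4 sets.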

How the results depend on the processing

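The count of called genes for OIR against sham with both transfections averaged was 30, and all 24 alternatives stayed within 1.5 times of it, at 25 to 39 genes (26 to 31 when 1 library was left out). With scrambled RNA, 18 of 25 alternatives stayed within 1.5 times of 16. The others were 26 with array weights, 10 with only the groups compared, 4 without both libraries that share a column number, and leave-one-out counts within a range of 6 to 21. With the mimic, 21 of 25 stayed within 1.5 times of 20, against 13 without both libraries that share a column number and a leave-one-out range of 11 to 22. The comparisons of mimic with scrambled RNA and the interaction called 0 of the 76 genes in every alternative run. With the replicate number as a block, 22 genes passed with scrambled RNA, 24 with the mimic, 32 for both averaged, and 0 in the other comparisons. In the main fit the numbers were not taken to pair the libraries. Same-number correlations ran from −0.05 to 0.26 over 18 pairs, and those of other pairs from −0.26 to 0.20. The ranges overlap and do not settle whether the numbers pair libraries. The highest, 0.26, was that of sham with scrambled RNA replicate 1 and sham with the mimic replicate 1, which also share a column number, and whether they came from 1 animal is not stated. Quantile normalisation reversed rank 6, with log2 fold changes of 0.29 for scrambled RNA, 0.50 for the mimic and 0.40 for their average (limma adjusted p = 0.0271, 0.00105 and 0.000247). It sets ranks 1 and 2 to exactly 0 by construction, because they hold the same places in all libraries. With both transfections averaged, 651 of 672 values of named genes kept their side of the threshold, 13 lost the call and 8 gained it. The sign changed or became 0 in 20 of them, all of ranks 1, 2, 3, 4, 6 and 8. Calls were lost in 70 of 700 values with scrambled RNA and in 54 of 700 with the mimic. With scrambled RNA, rank 1 lost its call in 11 alternatives, rank 7 in 6, rank 56 in 4 and rank 55 in 1. With the mimic, rank 56 lost it in 5 and rank 49 in 2. Counting error was at most 3.97% of a value in these genes.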
